A study of Mus musculus with 15 samples.

Results

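The small leucine-rich proteoglycans are secreted matrix proteins built on a core of leucine-rich repeats, most of which carry chondroitin, dermatan or keratan sulfate chains. The members were chosen by name and are Dcn, Bgn, Fmod, Lum, Ogn, Omd, Aspn, Prelp and Podn: 9 of the 55416 genes in the count table. They were followed in SVI cells, a conditionally immortalised mouse podocyte line, grown in the differentiated state on flexible silicone membranes and stretched mechanically. The study used this stretch as a model of raised pressure in the glomerulus, the filter of the kidney.

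Poly(A) RNA was sequenced from 15 samples in 2 experiments. Experiment 1 held 6 samples of low stretch, with a labelled deflection of the membrane centre of 5 to 6 mm, and 3 unstretched samples. Experiment 2 held 3 samples of high stretch, labelled 7 to 8 mm, and 3 unstretched samples. All samples came from the same cell line, which limits them as a model of podocytes in the animal, and stretch amplitude and experiment were the same split of the samples. The labels do not say whether replicates were separate passages, so p-values measure the spread between these samples, which may be technical. The duration of stretch was not given in the sources used here.

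These proteins bind fibrillar collagens and regulate fibril width and spacing, and several also bind growth factors or innate immune receptors. Decorin, encoded by Dcn, binds collagen I and transforming growth factor β. Biglycan, encoded by Bgn, binds collagens and is a ligand of Toll-like receptors. Podocan, encoded by Podn, takes its name from podocytes, the cells that wrap the glomerular capillaries, and was described in sclerotic glomeruli.

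Library totals ranged from 172.2 M to 396.7 M (megacounts). Principal component analysis of the expressed genes set the experiments apart along its leading axis (70% of variance). Along that axis, unstretched replicate 3 of experiment 2 stood away from the other unstretched samples of its experiment. The podocyte label was checked against 15 marker genes. Of these, Cdkn1c, Foxc2, Tcf21 and Ptpro stayed below 0.1 CPM, which are counts scaled to library size, in every sample.

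Podn was the dominant transcript of the family per length in all 4 groups. Its level in TPM, a transcript unit scaled by length and library, was 105 ± 45.6 (SD, n = 3) in unstretched cells of experiment 1 and 107 ± 20.1 (n = 3) in those of experiment 2. That was 88.2% ± 3.11 and 90.2% ± 1.44 of the summed TPM of the 9 genes. Bgn came next in every group, at 6.05 ± 1.85 and 8.82 ± 2.03 TPM in the same unstretched cells. Ogn followed in experiment 1, at 5.86 ± 2.74 TPM, a distance from Bgn within their spread, while Fmod followed in experiment 2, at 1.28 ± 0.438 TPM beside Ogn at 1.07 ± 0.923. The other members stood below 1 TPM in unstretched cells of both experiments. Podn, Bgn and Ogn together made up at least 98.2% of the family in every sample.

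The mean summed TPM of the family was lower in stretched cells of both experiments. It was 118 ± 47.2 (range 74.3 to 168) in unstretched and 54.4 ± 37.1 (range 26.6 to 112) in low-stretch cells of experiment 1, ranges that overlapped. It was 118 ± 22.8 (range 97.5 to 143) in unstretched and 26.7 ± 5.14 (range 21.6 to 31.9) in high-stretch cells of experiment 2, with no overlap. The share of Podn in that sum was 79.8% ± 9.94 under low stretch and 69.1% ± 5.19 under high stretch. In these bulk samples, fewer cells of a type and less RNA per cell cannot be told apart.

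**Figure D1:**
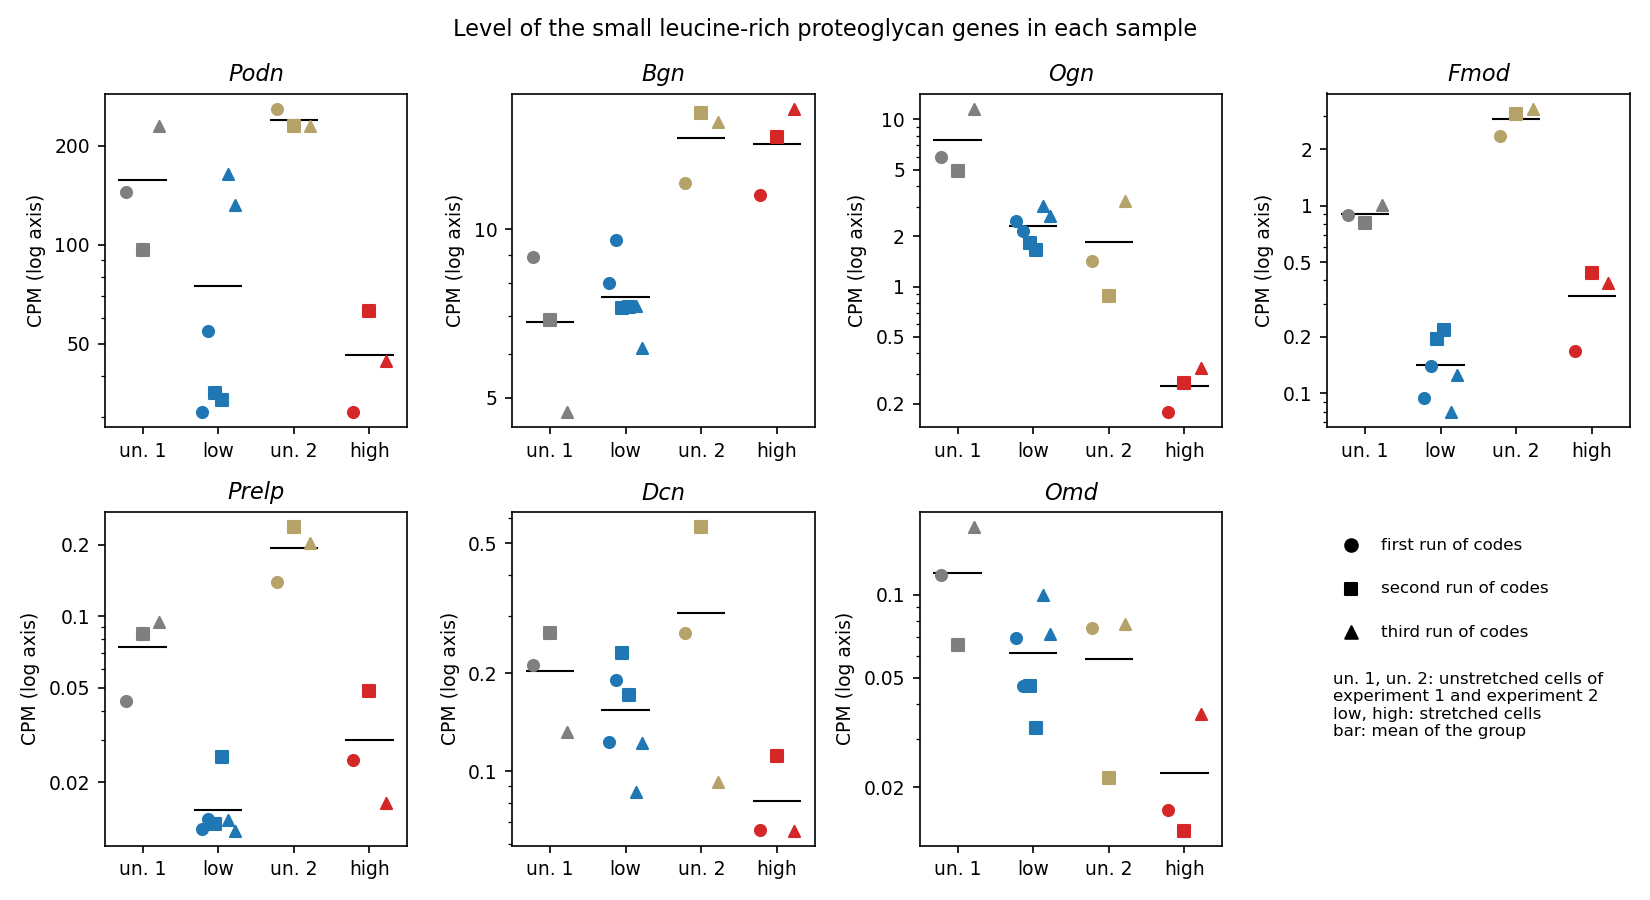
Library-scaled counts (CPM, log axis) of the 7 members that passed the count filter in at least 1 comparison, in each of the 15 samples; points are samples, their shape marks the run of neighbouring sample codes, and bars are group means. Fmod, Ogn and Prelp lie lower in every stretched sample than in any unstretched sample of the same experiment, while the Bgn points of stretched and unstretched samples overlap.

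The members that fell with stretch were set beside their upstream sequences, with Bgn, which passed the test in neither stretch comparison, for contrast. The sequences are RefSeq windows of build GRCm38.p6, read 5′ to 3′ on the gene's strand up to the base before the annotated start or, for Prelp and Podn, up to the first base of an annotated exon. Capitals mark matches, on either strand, to 5 short motifs: a TATA box (TATAAA), an Sp1 box (GGGCGG), a TEAD element (GGAATG), an AP-1 element (TGANTCA) and a SMAD element (CAGACA). Of 9 members, 7 had a window in the table. The Fmod window is chr1:134037004-134037253 on the plus strand.
Fmod: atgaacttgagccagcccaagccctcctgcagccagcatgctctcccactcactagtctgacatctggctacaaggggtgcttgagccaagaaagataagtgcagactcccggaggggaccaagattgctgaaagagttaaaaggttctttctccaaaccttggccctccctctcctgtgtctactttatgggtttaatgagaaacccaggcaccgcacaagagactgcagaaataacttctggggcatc
The Prelp window is chr1:133921415-133921651 on the minus strand, next to Fmod on the chromosome.
Prelp: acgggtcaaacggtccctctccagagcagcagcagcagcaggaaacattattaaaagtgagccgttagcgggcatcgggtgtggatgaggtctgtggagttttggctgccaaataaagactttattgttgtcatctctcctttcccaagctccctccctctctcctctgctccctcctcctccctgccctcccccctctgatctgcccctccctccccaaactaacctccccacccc
The Ogn window is chr13:49607765-49608014 on the plus strand; its RefSeq start lies 31 bases upstream of the nearest transcript start in the GENCODE M21 annotation.
Ogn: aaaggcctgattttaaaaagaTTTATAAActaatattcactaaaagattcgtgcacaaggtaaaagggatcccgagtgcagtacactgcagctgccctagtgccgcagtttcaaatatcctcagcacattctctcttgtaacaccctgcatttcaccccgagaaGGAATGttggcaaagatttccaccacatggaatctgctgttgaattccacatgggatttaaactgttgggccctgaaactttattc
Podn has 2 windows in the table. The first, printed here, is chr4:108032091-108032204 on the minus strand, and the second is chr4:108030987-108031236, at the start of the transcript Podn-208.
Podn: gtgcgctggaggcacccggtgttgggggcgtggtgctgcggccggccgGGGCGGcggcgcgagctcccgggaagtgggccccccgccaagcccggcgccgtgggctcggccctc
The Bgn window is chrX:73483351-73483600 on the plus strand.
Bgn: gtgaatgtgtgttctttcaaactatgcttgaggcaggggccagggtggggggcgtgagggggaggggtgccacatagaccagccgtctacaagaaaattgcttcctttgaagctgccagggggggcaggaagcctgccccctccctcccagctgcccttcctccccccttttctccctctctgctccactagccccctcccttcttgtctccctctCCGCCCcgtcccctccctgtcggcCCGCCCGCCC

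The upstream sequences of the genes that fell had no motif in common among those searched. In the bases printed, Fmod and Prelp held none of the 5 motifs, nor did the second Podn window. Ogn held a TEAD element 86 bases upstream of its start and a pair of TATA boxes, read on opposite strands and overlapping each other, at 229 and 227 bases. The first Podn window held an Sp1 box at 202 bases, and Bgn held 3, at 34, 10 and 6 bases. All 32851 promoter windows of the table were searched over their full 250 bases. Of these, 12.4% held the TATA box, 32.7% the Sp1 box, 12.6% the TEAD element, 6.75% the AP-1 element and 17.1% the SMAD element. Fewer bases were searched for Prelp (237) and the first Podn window (114), so these shares come from a longer search. A match is a description of letters, and a missing match says nothing on whether a factor binds. The GC content of the full 250 bases before the start, of which fewer are printed for Podn and Prelp, was 78.0% and 64% for the first and second Podn windows, 64.4% for Bgn, 55.6% for Prelp, 51.2% for Fmod and 42% for Ogn, beside a median of 52.4% over all windows.

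The first comparison asked how the family responds to low stretch. Fmod, Prelp and Ogn fell in low-stretch cells, and no tested member rose. Of 9 members, 7 had enough counts to be tested, 3 were called at an adjusted p of 0.05 in edgeR's quasi-likelihood test, and all 3 were lower. Over all 21672 genes tested, 5.45% were called, 3.6% lower and 1.85% higher. The same 3 members had stretched and unstretched values that did not overlap, as did 15.9% of all genes, 6.84% with the stretched cells lower. The median log2 fold change of the 7 tested members was -1.08, beside 0.01 over all genes tested. Members were tested only where their counts passed the filter, so this median leaves out Lum and Aspn. Prelp, counted 4 to 7 times in low-stretch cells, passed the filter through its unstretched samples. Its place among the members called, and in this median, was thus partly set by the filter.

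Fmod encodes fibromodulin, a keratan sulfate proteoglycan that binds collagen fibrils. Its raw counts in unstretched cells of experiment 1 were 303, 272 and 320, and in low-stretch cells they ran from 23 to 60 with a median of 49.5. Scaled to library size these were 0.904 ± 0.0984 CPM (SD, n = 3) and 0.142 ± 0.055 CPM (n = 6). Every low-stretch sample lay below every unstretched sample. The log2 fold change was -2.69 (SE 0.27, edgeR adjusted p = 0.00177).

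Prelp encodes a proteoglycan-like protein with a basic end that binds heparan sulfate, linking basement membranes to collagen. It was counted 15, 28 and 30 times in unstretched cells and 4 to 7 times, with a median of 4, in low-stretch cells. These counts are small for libraries of this depth, and the groups did not overlap. This gave a log2 fold change of -2.29 (SE 0.33, edgeR adjusted p = 0.00627).

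Ogn encodes osteoglycin, also called mimecan, a keratan sulfate proteoglycan first purified from bone. Unstretched cells of experiment 1 held 6, 4.94 and 11.6 CPM, and low-stretch cells held 1.66 to 3.03 CPM with a median of 2.3. Replicate 3 was the highest of the unstretched samples, and the groups did not overlap. The log2 fold change was -1.73 (SE 0.26, edgeR adjusted p = 0.0064). A gene on the opposite strand, Cenpp, spans Ogn, Omd and Aspn in the annotation, and its exons overlap those of Aspn but not those of Ogn or Omd.

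Podn, whose level ran widely across samples, did not pass the test under low stretch. Unstretched cells of experiment 1 held 145, 96.3 and 229 CPM, and the 6 low-stretch samples held 31, 54.7, 35.4, 33.6, 164 and 132 CPM in order of replicate. Replicates 5 and 6 were high and overlapped the unstretched range, while the other low-stretch samples lay below it. This gave a log2 fold change of -1.08 (SE 0.54, edgeR adjusted p = 0.257).

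The codes in the sample descriptions form an unbroken series. They were divided here into runs of neighbouring codes, each starting at its 1 unstretched sample. The labels state no such runs and do not say what the codes stand for. In experiment 1, replicates 5 and 6 of low stretch shared a run with unstretched replicate 3, the unstretched sample with the most Podn. Set against the unstretched sample of its own run, Podn was lower in 6 of 6 low-stretch samples, with log2 ratios of -2.23 to -0.48. With the run as a block in the edgeR fit, the log2 fold change was -1.35 and the adjusted p 0.00073, in a fit that called 6106 genes where the fit without the block called 1181. The same block brought Omd past the threshold, at -0.97 with an edgeR adjusted p of 0.0117. Fmod, Ogn and Prelp were lower in 6 of 6 samples within runs, with log2 ratios of -3.66 to -1.9, -2.12 to -1.29 and -2.92 to -1.66. For these 3 genes the count of 6 of 6 was bound to follow, as their groups did not overlap. Low-stretch samples of the same run share its unstretched sample, so these ratios are not independent. The share of all genes lower in 6 of 6 samples was not computed.

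**Figure D2:**
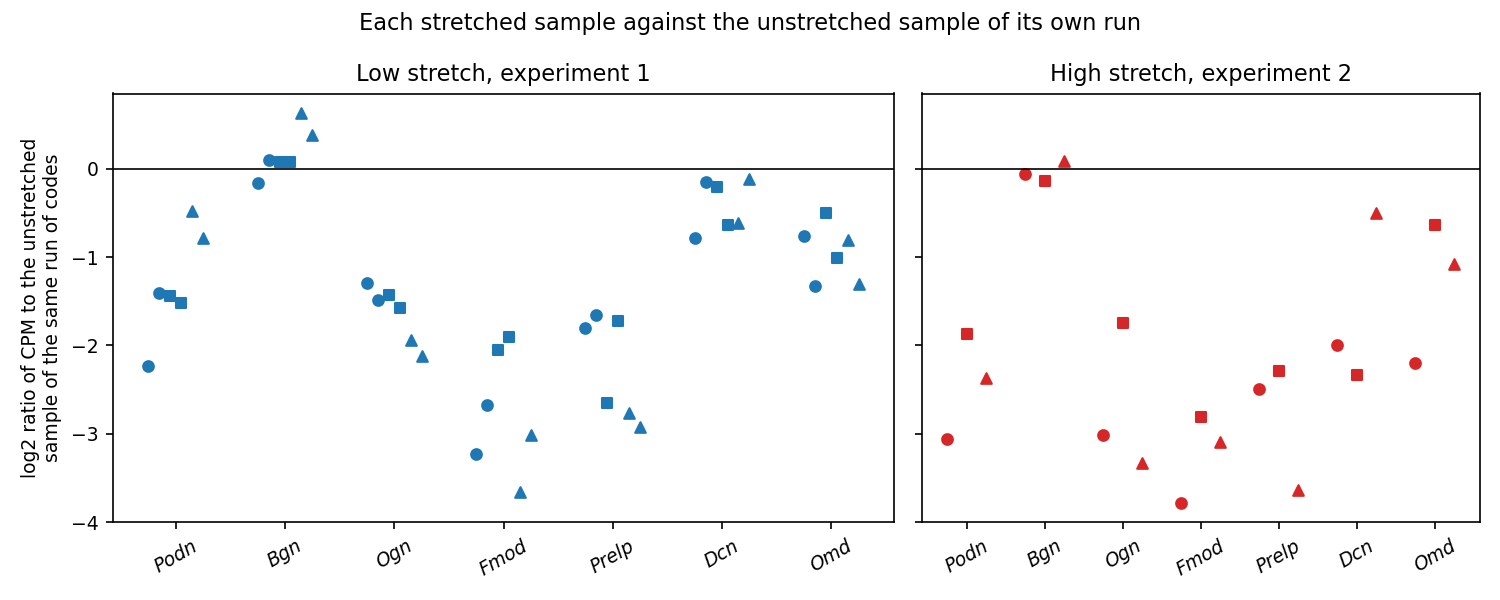
Log2 ratio of the CPM of each stretched sample to that of the unstretched sample of its own run of codes, for 7 members; points are stretched samples, their shape marks the run, and the line at 0 marks no difference. Podn, Ogn, Fmod, Prelp, Dcn and Omd lie below 0 in 6 of 6 low-stretch and 3 of 3 high-stretch samples, while Bgn lies on both sides of the line. Where the groups of a member do not overlap, such a count is bound to follow. Low-stretch points of the same run share an unstretched sample and are not independent.

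Omd, Dcn and Bgn did not pass the test under low stretch. Omd encodes osteoadherin, a keratan sulfate proteoglycan of mineralised tissue, and was counted 40, 22 and 56 times in unstretched and 9 to 29 times, with a median of 21, in low-stretch cells. Its groups overlapped, with a log2 fold change of -0.99 (SE 0.37, edgeR adjusted p = 0.142). Dcn was counted 72, 89 and 42 times in unstretched and 25 to 82 times, with a median of 43, in low-stretch cells. Its log2 fold change was -0.43 (SE 0.32, edgeR adjusted p = 0.441), and these groups overlapped too.

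Bgn, the second most abundant member, held 8.92, 6.89 and 4.72 CPM in unstretched and 6.13 to 9.58 CPM, with a median of 7.27, in low-stretch cells. The low-stretch values lay almost wholly inside the unstretched range. Its log2 fold change was 0.12 (SE 0.19, edgeR adjusted p = 0.736), and within runs it was lower in 1 of 6 samples.

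Lum and Aspn were near the limit of counting. Lum encodes lumican, a keratan sulfate proteoglycan of the cornea and other connective tissue, and was counted 0 to 17 times over the 15 samples. It was at 0 in low-stretch replicate 4, in unstretched replicates 2 and 3 of experiment 1 and in unstretched replicate 3 of experiment 2, where a count of 0 allows up to 3 counts, or 0.009 to 0.011 CPM. Aspn encodes asporin, a relative of decorin and biglycan with a run of aspartates, and was counted 2 to 8 times in each sample. A difference between groups was not detectable at this depth for either gene, and these limits cover counting error only.

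The second comparison asked the same of high stretch. Fmod, Ogn, Prelp and Podn fell in high-stretch cells, and no tested member rose. Of 9 members, 6 were tested and 4 were called, all lower, in edgeR's quasi-likelihood test. Over all 18524 genes tested, 3.47% were called, 2.16% lower and 1.31% higher. The same 4 members had groups that did not overlap, as did 20.9% of all genes, 10.3% with the stretched cells lower. The median log2 fold change of the 6 tested members was -2.57, beside -0.02 over all genes, and it leaves out Lum, Aspn and Omd, which did not pass the count filter. Prelp, counted 4 to 7 times in high-stretch cells, again passed the filter through its unstretched samples. Its place among the calls and in the median was partly set by the filter here too.

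Podn, the most abundant member, held 259, 230 and 229 CPM in unstretched cells of experiment 2 and 31.1, 63 and 44.4 CPM in high-stretch cells. The 3 unstretched samples were close together and the high-stretch samples all lay far below them. The log2 fold change was -2.38 (SE 0.27, edgeR adjusted p = 0.00641). The neighbouring gene Scp2 overlaps Podn on the same strand in the annotation, with no shared exon.

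Fmod was counted 370, 426 and 884 times in unstretched cells and 41, 63 and 94 times in high-stretch cells. In CPM the means were 2.9 ± 0.497 (n = 3) and 0.331 ± 0.142 (n = 3), without overlap. The log2 fold change of -3.15 (SE 0.39, edgeR adjusted p = 0.00808) had the largest size among the tested members, as it did under low stretch.

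Ogn held 1.43, 0.885 and 3.27 CPM in unstretched cells and 0.178, 0.264 and 0.325 CPM in high-stretch cells. The unstretched samples were spread widely, with replicate 3 the highest, and all lay above the high-stretch samples. This gave a log2 fold change of -2.87 (SE 0.51, edgeR adjusted p = 0.0246).

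Prelp was counted 22, 33 and 55 times in unstretched and 6, 7 and 4 times in high-stretch cells. The groups did not overlap in CPM, at 0.194 ± 0.0502 and 0.0299 ± 0.0167. The log2 fold change was -2.76 (SE 0.49, edgeR adjusted p = 0.0252). Within runs, Fmod, Ogn, Prelp and Podn were each lower in 3 of 3 high-stretch samples. That was bound to follow, as their groups did not overlap. The share of all genes lower in 3 of 3 samples was not computed.

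**Figure D3:**
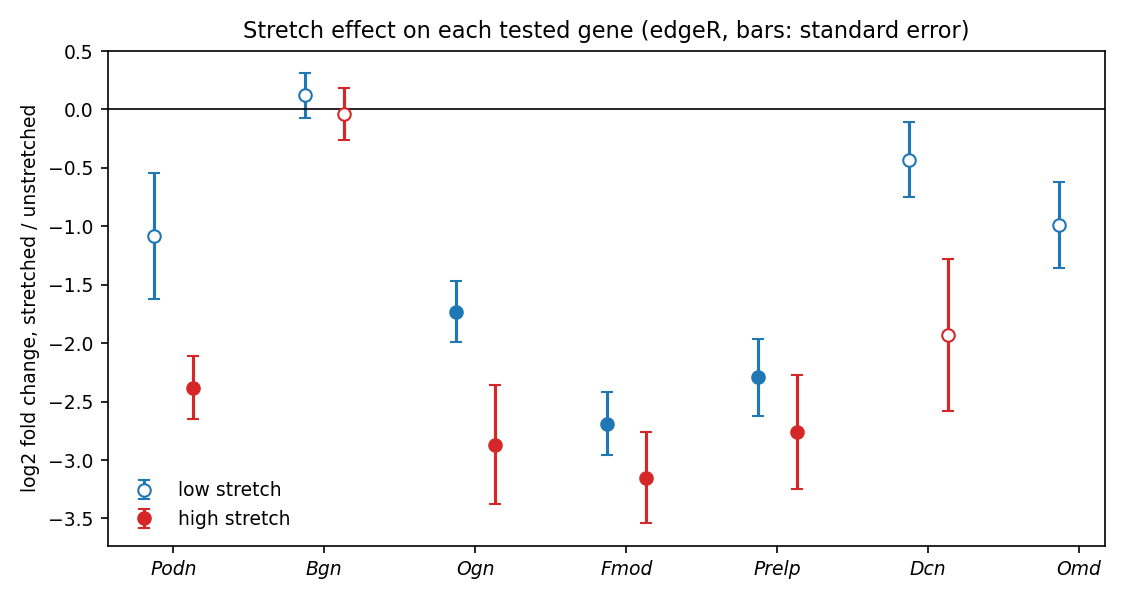
Log2 fold change of stretched over unstretched cells for each tested member, low stretch in blue and high stretch in red; bars are standard errors and filled points passed an edgeR adjusted p of 0.05. Fmod has the lowest value in both comparisons, at -2.69 and -3.15, Bgn lies at 0.12 and -0.04, and Omd has no high-stretch point because it did not pass the count filter there.

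Dcn was counted 16 times in each of the 3 high-stretch samples, and 42, 78 and 25 times in unstretched cells of experiment 2. In CPM, high-stretch replicate 2 at 0.111 lay above unstretched replicate 3 at 0.0929, so the groups overlapped. This gave a log2 fold change of -1.93 (SE 0.65, edgeR adjusted p = 0.2). Leaving out unstretched replicate 3, the sample that stood apart in the principal component analysis, gave -2.37 (edgeR adjusted p = 0.0096), while leaving out unstretched replicate 2 gave -1.12 (edgeR adjusted p = 0.39). Of 6 fits with a sample left out, 1 passed, and the edgeR adjusted p reached 0.566. In DESeq2 the adjusted p was 0.038. A block for the run of codes gave -1.65 (edgeR adjusted p = 0.0102). In experiment 2 the runs are the same split as the replicate numbers. Between paired samples, deviations from the group means in log2 CPM over the expressed genes correlated at -0.16, 0.45 and 0.244.

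Bgn held 12.1, 16.1 and 15.5 CPM in unstretched and 11.5, 14.6 and 16.4 CPM in high-stretch cells, values that overlapped almost fully. Its log2 fold change was -0.04 (SE 0.22, edgeR adjusted p = 0.973). Omd was counted 12, 3 and 21 times in unstretched and 4, 2 and 9 times in high-stretch cells and was not tested.

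The calls under high stretch rested on few samples. Without high-stretch replicate 3, no member passed, with Fmod and Podn at an edgeR adjusted p of 0.0628, Ogn at 0.123 and Prelp at 0.155, in a fit that called 14 genes in all. Without unstretched replicate 1, Ogn (0.0789) and Prelp (0.0791) missed the threshold, without high-stretch replicate 1 they stood at 0.134 and 0.147, and without high-stretch replicate 2 Ogn stood at 0.0745 (all edgeR adjusted p). Without unstretched replicate 3, all 4 members passed, with log2 fold changes of -3.04 for Fmod, -2.18 for Ogn, -2.71 for Prelp and -2.4 for Podn.

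The third comparison asked whether the size of the response differed between high and low stretch. No member and none of 22015 genes passed an edgeR adjusted p of 0.05, 0% of the genes tested, with 547 genes and 1 member, Dcn, at an unadjusted p under 0.05. DESeq2 also called 0 genes. The difference of the log2 fold changes, high minus low, was -1.53 (SE 0.71) for Dcn, -1.32 (SE 0.75) for Podn and -1.15 (SE 0.56) for Ogn. It was -0.51 (SE 0.61) for Prelp, -0.47 (SE 0.47) for Fmod, -0.39 (SE 0.72) for Omd and -0.18 (SE 0.29) for Bgn. The edgeR adjusted p was 1 for all 7, which does not show that the effects were alike, and amplitude and experiment cannot be told apart.

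Before any stretch, several members differed between the experiments, as did most genes tested. In unstretched cells of experiment 2 against those of experiment 1, Fmod, Prelp and Bgn were higher and Ogn was lower. These 4 members were called among 7 tested in edgeR, 3 higher and 1 lower, while 62.5% of all 20707 genes tested were called, 29.7% higher and 32.7% lower, so the share of members called was near the background. The log2 difference was 1.66 (SE 0.24, edgeR adjusted p = 0.00533) for Fmod and 1.36 (SE 0.4, edgeR adjusted p = 0.0178) for Prelp. It was 1.07 (SE 0.26, edgeR adjusted p = 0.00893) for Bgn and -2.04 (SE 0.5, edgeR adjusted p = 0.00882) for Ogn. Podn, at 0.6 (SE 0.29, edgeR adjusted p = 0.104), did not pass although its groups did not overlap, as was so for 5 members and 72.5% of all genes, 36.7% lower in experiment 2. These unstretched samples are also the controls of the stretch comparisons. The fall of Ogn and the fall of Fmod with stretch were therefore measured from baselines that differed in opposite directions.

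Transcript levels were given for 31 transcripts of the 9 genes, and Podn was the member with several abundant ones. In unstretched cells of experiment 1 its TPM was split among Podn-202 at 30.1% ± 1.23 (n = 3), Podn-203 at 26.5% ± 6.58 and Podn-201 at 24.8% ± 4.29. In unstretched cells of experiment 2, Podn-203 held 52.9% ± 8.01, Podn-202 held 32.3% ± 1.37 and Podn-201 held 8.45% ± 5.69. Podn-202 starts within 1 base of the first RefSeq start, Podn-203 starts 136 bases upstream of it, and Podn-201 starts 64491 bases upstream. The share of Podn-203 was higher and that of Podn-201 lower in each unstretched sample of experiment 2 than in any of experiment 1. This difference was not tested, and how many of all transcripts part in this way was not computed.

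Under stretch the shares of the Podn transcripts lay near those of the unstretched cells of the same experiment. Podn-203 held 29.2% ± 6.93 under low stretch (n = 6) and 48.6% ± 5.76 under high stretch (n = 3). In a limma test of the log2 ratio of each transcript to the other transcripts of its gene, 0 of 7 member transcripts tested under low stretch and 0 of 5 under high stretch passed an adjusted p of 0.05. None of them had an unadjusted p under 0.05. Over all genes, 0.0145% of 27672 transcripts were called under low stretch and 0% of 23374 under high stretch, with 2781 and 1906 at an unadjusted limma p under 0.05. The change in the log2 ratio of Podn-203 was 0.19 (SE 0.33) under low and -0.25 (SE 0.28) under high stretch. That of Podn-202 was 0.06 (SE 0.11) and 0.12 (SE 0.19). Podn-203 and Podn-202 were both lower in TPM under high stretch, without overlap. The share of all transcripts without overlap was not computed. Podn-203 was 55.9 ± 9.15 TPM in unstretched and 9.22 ± 3.4 TPM in stretched cells, and Podn-202 was 34.6 ± 7.77 and 6.24 ± 1.15 TPM. Bgn was almost wholly Bgn-201, at 89% ± 6.21 to 92.2% ± 1.2 of its TPM over the 4 groups.

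**Figure D4:**
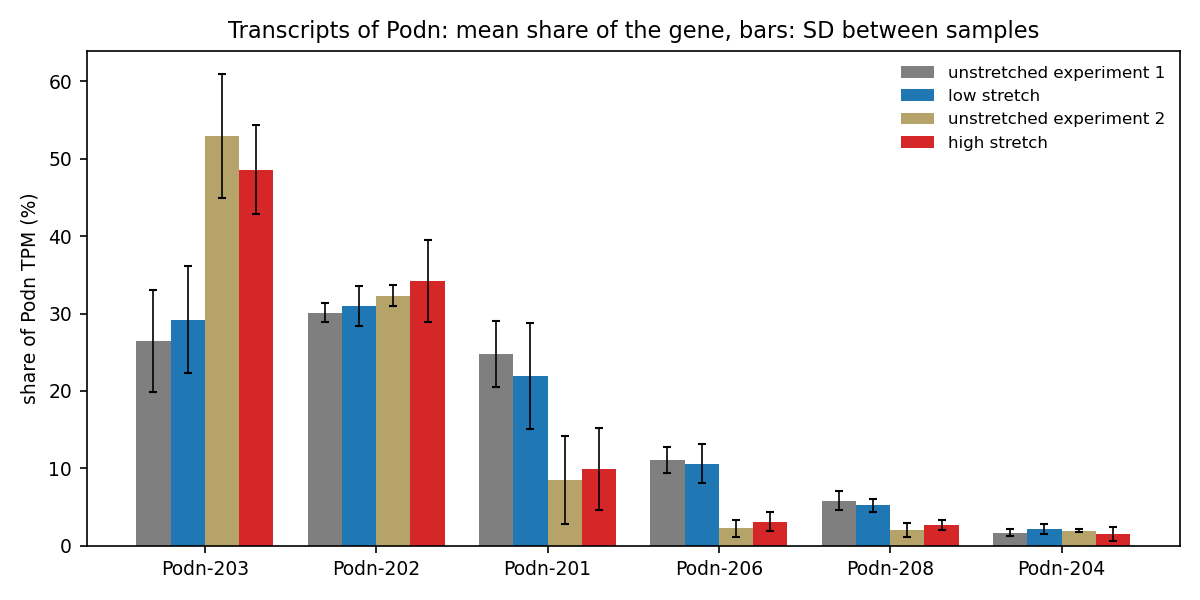
Share of the TPM of Podn held by each of 6 transcripts (percent), as the mean of each group with the SD between samples as error bars. Podn-203 holds 26.5% and 29.2% in unstretched and low-stretch cells of experiment 1, and 52.9% and 48.6% in unstretched and high-stretch cells of experiment 2.

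The genes of the pathway around the family were followed in lists chosen by function. For these lists and the marker lists below, the background is the share of all genes called, 5.45% under low and 3.47% under high stretch. The median log2 fold change over all genes was 0.01 and -0.02. The other leucine-rich proteoglycans of the family, 9 genes that include Chad, Nyx, Tsku and the Podn relative Podnl1, had 6 tested under low stretch and 4 under high stretch, and none passed. Their median log2 fold change was 0 and 0.12. Podnl1 lay at 1.12 (SE 0.47, edgeR adjusted p = 0.181) and 1.73 (SE 0.38, edgeR adjusted p = 0.0514), values chosen for mention after they were seen.

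Some enzymes that build the chains carried by these proteins passed the test. Of 10 keratan sulfate genes, 7 were tested, with 1 higher and 1 lower under low stretch and 2 lower under high stretch. Chst1, a sulfotransferase that adds sulfate to keratan sulfate, fell from 6.89 ± 4.35 to 0.9 ± 0.656 CPM under low stretch, a log2 fold change of -2.95 (SE 0.55, edgeR adjusted p = 0.0136). It fell from 14.8 ± 4.69 to 1.17 ± 0.219 CPM under high stretch, at -3.67 (SE 0.33, edgeR adjusted p = 0.00385). B4galt4, a galactosyltransferase of the same chains, fell under high stretch, at -0.92 (SE 0.16, edgeR adjusted p = 0.0253). Fut8, which adds core fucose to N-glycans, rose under low stretch by 0.34 (SE 0.06, edgeR adjusted p = 0.0164). The other keratan sulfate genes tested passed in neither comparison, and the list's median was -0.04 under low and 0.31 under high stretch.

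Of 23 chondroitin and dermatan sulfate genes, 19 were tested, with 1 higher under low stretch, 2 higher under high stretch and none lower. Pxylp1, a phosphatase that acts on the linker sugar of the chain, rose by 0.6 (SE 0.09, edgeR adjusted p = 0.00639) and by 0.89 (SE 0.17, edgeR adjusted p = 0.0321). Chst11, a chondroitin sulfotransferase, rose under high stretch from 6.52 ± 1.54 to 19.4 ± 4.54 CPM, at 1.57 (SE 0.27, edgeR adjusted p = 0.0227). The medians were 0.04 and 0.16.

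The collagens and fibril partners that these proteins bind moved in both directions. Of 16 genes, 14 were tested under low stretch, with 1 higher and 2 lower, and 13 under high stretch, with 1 higher and 1 lower. Col6a3, a chain of the beaded-filament collagen VI, rose by 1.99 (SE 0.42, edgeR adjusted p = 0.0235) and by 3.05 (SE 0.33, edgeR adjusted p = 0.00592). Col11a1, a chain of a fibril-nucleating collagen, fell in both, with log2 fold changes of -2.22 (SE 0.16, edgeR adjusted p = 0.000386) and -2.35 (SE 0.36, edgeR adjusted p = 0.0153). Col5a2, of the related collagen V, fell, at -0.46 (SE 0.1, edgeR adjusted p = 0.0226) under low stretch. The medians were 0.18 and 0.28.

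Proteases that process or cleave these proteins had 11 of 13 tested. Under low stretch 2 rose and none fell: Adamts1, an aggrecanase-type protease, by 0.8 (SE 0.14, edgeR adjusted p = 0.0101), and Bmp1, which cleaves the biglycan and osteoglycin precursors, by 0.62 (SE 0.15, edgeR adjusted p = 0.0374). Under high stretch Pcolce2, an enhancer of procollagen processing, rose by 2.33 (SE 0.34, edgeR adjusted p = 0.0142), and Adamts4 fell, at -1.31 (SE 0.22, edgeR adjusted p = 0.0229). Under low stretch Adamts4 lay at -1.21 (SE 0.32, edgeR adjusted p = 0.0554) and passed as lower in 6 of 16 alternative fits, and Pcolce2 lay at 1.16 (SE 0.62, edgeR adjusted p = 0.284) and passed as higher in 1 of 16. The list's medians were 0.08 and 0.24.

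Ligands and receptors bound by the family had 17 of 19 tested. Tlr2, a receptor of biglycan, rose under low stretch by 0.68 (SE 0.13, edgeR adjusted p = 0.016), and Cd44, a matrix receptor, rose under high stretch by 1.48 (SE 0.26, edgeR adjusted p = 0.025). Under high stretch Tlr2 lay at 0.46 (SE 0.2, edgeR adjusted p = 0.334). Under low stretch Cd44 lay at 0.87 (SE 0.29, edgeR adjusted p = 0.106) and passed as higher in 3 of 16 alternative fits. None of this list fell, and the medians were 0.03 and 0.24. Among 23 other proteoglycans, 17 were tested under low stretch, with 2 higher (Bcan and Sdc3) and 3 lower (Gpc4, with Hspg2 and Sdc4 named after their values were seen). Bcan was at 0.0181 ± 0.00566 CPM in unstretched and 0.0567 ± 0.0207 CPM in low-stretch cells. It passed the filter through its low-stretch samples, so its place among the calls was partly set by the filter. It was not tested under high stretch. Of 16 other proteoglycans tested under high stretch, Sdc3, a syndecan, rose by 1.24 (SE 0.22, edgeR adjusted p = 0.0253), and Gpc4, a glypican, fell, at -1.07 (SE 0.16, edgeR adjusted p = 0.0146). The medians were -0.14 and -0.16.

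Several of these calls depended on single samples. Under low stretch, of 9 fits with a sample left out, Bcan passed in 2, Sdc3 in 3, Bmp1 in 4, Col6a3 in 5, Col5a2 in 6, Fut8 and Tlr2 in 7, and Chst1 and Gpc4 in 8. The edgeR adjusted p reached 0.214 for Bcan, 0.2 for Sdc3 and 0.179 for Bmp1. Pxylp1, Col11a1 and Adamts1 passed in all 9. Under high stretch, of 6 such fits, Pxylp1, Col11a1, B4galt4, Adamts4, Gpc4 and Sdc3 passed in 2, Chst11, Pcolce2 and Cd44 in 3, and Chst1 and Col6a3 in 5. All of these calls kept their direction in every fit with a sample left out.

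**Figure D5:**
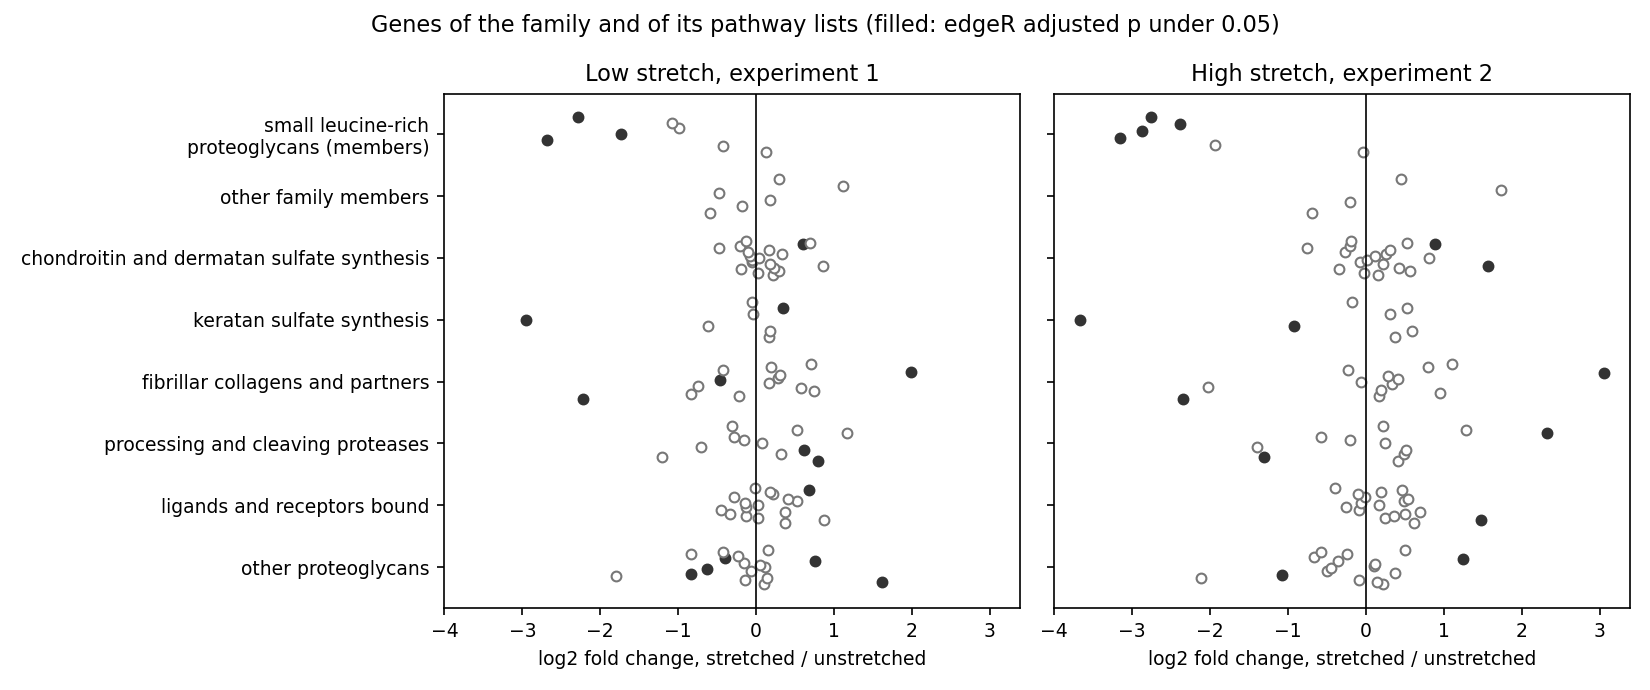
Log2 fold change of stretched over unstretched cells for the tested genes of the family and of 7 lists around it, under low stretch (left) and high stretch (right); points are genes and filled points passed an edgeR adjusted p of 0.05. The family has 3 and 4 filled points, all below 0, while Col6a3 at 1.99 and 3.05 and Chst1 at -2.95 and -3.67 stand at the ends of the other lists.

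Markers of cell types were read beside these results. Of the podocyte markers, 11 of 15 were tested under low stretch and 1 fell, Plce1, a phospholipase of podocytes, at -1.96 (SE 0.23, edgeR adjusted p = 0.00314). Under high stretch 2 of 10 fell, Plce1 at -2.48 (SE 0.45, edgeR adjusted p = 0.0262) and the transcription factor gene Wt1 at -2.36 (SE 0.45, edgeR adjusted p = 0.0311). Under low stretch Wt1 lay at -1.16 (SE 0.33, edgeR adjusted p = 0.0688) and passed as lower in 5 of 16 alternative fits. The summed level of the podocyte list was 1200 to 1330 CPM in unstretched and 1310 to 1580 CPM in low-stretch cells, and 1700 to 2580 and 2240 to 2840 CPM in experiment 2. Most of that sum came from 2 genes, named after their values were seen: Actn4, at 658 ± 84.5 in unstretched and 821 ± 169 CPM in low-stretch cells and at 1330 ± 360 and 1800 ± 167 CPM in experiment 2, and Synpo, at 316 ± 15 and 370 ± 93.1 CPM and at 653 ± 148 and 660 ± 186 CPM. Neither passed the test. Gene by gene, 5 of the 11 tested had a log2 fold change below 0 under low stretch, with a median of 0.19, and 8 of the 10 tested did under high stretch, with a median of -0.27. Fibroblast and mesangial markers had 7 of 12 genes, Pdgfra, Thy1, Dpt, Fap, Meox1, Itga8 and Ren1, below 0.1 CPM in every sample. Their sum was 1260 to 1990 CPM in unstretched and 1510 to 4010 CPM in low-stretch cells, and 2620 to 7040 and 6690 to 10400 CPM in experiment 2. Nearly all of it was Acta2, which encodes smooth muscle actin and is named after its values were seen. Acta2 was 1520 ± 375 CPM in unstretched and 2830 ± 1050 CPM in low-stretch cells, a log2 fold change of 0.86 (SE 0.32, edgeR adjusted p = 0.136). In experiment 2 it was 4550 ± 2200 and 9010 ± 2110 CPM, at 0.98 (SE 0.38, edgeR adjusted p = 0.269). Of the 5 genes tested, 4 had a log2 fold change below 0 under low stretch (median -0.06), where Pdgfrb fell, at -0.56 (SE 0.11, edgeR adjusted p = 0.0199), and 3 did under high stretch (median -0.38), where none passed.

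Tendon and cartilage, the tissues in which several of these proteoglycans are abundant, had 8 markers, of which Tnmd stayed below 0.1 CPM in every sample. Cnmd, which encodes chondromodulin, fell, at -3.53 (SE 0.52, edgeR adjusted p = 0.00628) under low stretch and -5.72 (SE 0.43, edgeR adjusted p = 0.00246) under high stretch. Sox9 fell under high stretch, at -0.94 (SE 0.2, edgeR adjusted p = 0.0441). Of the 7 genes tested, 3 lay above 0 and 4 below under low stretch (median -0.37). Under high stretch 2 lay above and 5 below (median -0.9), and none passed as higher in either. The sum of the list was 77.3 to 100 CPM in unstretched and 68.6 to 110 CPM in low-stretch cells. In experiment 2 it was 145 to 259 and 107 to 199 CPM. Its largest part on average was Scx, named after its values were seen. Scx lay at 0.1 (SE 0.21, edgeR adjusted p = 0.805) under low and -0.35 (SE 0.42, edgeR adjusted p = 0.842) under high stretch.

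Of the leukocyte markers, Csf1r fell in both comparisons, at -1.51 (SE 0.23, edgeR adjusted p = 0.00739) and -2.02 (SE 0.25, edgeR adjusted p = 0.00808). Ptprc, Adgre1, Itgam and Cd3e stayed below 0.1 CPM in every sample. Cd68, named after its values were seen, was 1.14 ± 0.0665 CPM in unstretched and 1.07 ± 0.0849 CPM in low-stretch cells. In experiment 2 it was 1.04 ± 0.26 and 1.89 ± 0.252 CPM, at 0.86 (SE 0.27, edgeR adjusted p = 0.165). Of the list, 1 of 3 genes tested lay above 0 under low stretch and 1 of 2 under high stretch. The list summed to 23.4 to 25.9 CPM in unstretched and 6.65 to 13.5 CPM in low-stretch cells, and to 24.3 to 25.6 and 6.03 to 9.67 CPM in experiment 2. Most of that sum was Csf1r. Endothelial markers had Cdh5, Kdr, Tek and Emcn below 0.1 CPM in every sample. They summed to 44.6 to 46.4 CPM in unstretched and 26.7 to 36.5 CPM in low-stretch cells, and to 68.9 to 80.4 and 43.4 to 55.8 CPM in experiment 2. Nearly all of that sum was Ehd3, which fell under low stretch, at -0.48 (SE 0.09, edgeR adjusted p = 0.0147). Under high stretch Ehd3 lay at -0.57 (SE 0.17, edgeR adjusted p = 0.133). Of the 4 genes tested under low stretch, 3 had a log2 fold change above 0 (median 0.5). Under high stretch 2 of 3 did (median 0.92), and none passed as higher. The genes above 0, named after their values were seen, were Pecam1, Vwf and, under low stretch, Tek. They reached at most 0.187 CPM in any sample, so these medians rest on trace levels. Parietal and tubular epithelial markers had Epcam, Slc34a1, Umod and Aqp2 below 0.1 CPM in every sample and summed to 1250 to 1450 and 791 to 1160 CPM in experiment 1 and to 854 to 1180 and 738 to 884 CPM in experiment 2. In that list Lrp2 fell at -0.65 (SE 0.14, edgeR adjusted p = 0.0227) and Cdh1 at -1.18 (SE 0.28, edgeR adjusted p = 0.0391) under low stretch. With a sample left out, Cdh1 passed in 3 of 9 fits under low stretch, Lrp2 in 5, Ehd3 in 6 and Pdgfrb in 7, and under high stretch Plce1, Wt1 and Sox9 passed in 2 of 6 and Csf1r in 5. The part of these markers in the fall of the proteoglycan genes was not tested.

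For the 4 members called in at least 1 stretch comparison, the genes with the most similar profile over the 15 samples were found by the root mean square difference in log2 CPM, centred within each experiment, among genes of at least 1 CPM on average. Nearest to Podn were Ackr3 (difference 0.266), Cmpk2 (0.271) and Cldn2 (0.277). Nearest to Ogn were Plce1 (0.355), Enpep (0.373) and Postn (0.378), of which Enpep encodes a membrane peptidase and Postn the matrix protein periostin. Nearest to Fmod were Agt (0.438), which encodes angiotensinogen, Serpina10 (0.485) and C1s1 (0.534). Nearest to Prelp were Bst1 (0.428), Plcd4 (0.434) and Sh3rf2 (0.449). Prelp has few counts, so its profile carries more counting error than the others. These likenesses describe the samples, which share libraries and groups, and were given no test.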

How the data were processed

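Poly(A) libraries (TruSeq stranded mRNA, paired reads) were sequenced, per the labels' protocols. The authors deposited raw counts per gene and transcript levels in TPM; STAR 2.7.5c, featureCounts, Subread 2.0.0, DESeq2 1.38.3, Salmon 1.9.0 and build mm39 are named, per the submitters' processing notes, with no role or order. Strand setting, annotation release and whether a read pair counted once are not given in the sources used here. Ensembl IDs were matched to symbols for 52083 of 55416 genes, and 137189 of 140789 transcripts were matched to genes, with GENCODE M21 (GRCm38). The gene models differ in build from the deposited counts, so gene coordinates are printed only for the RefSeq promoter table.

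Counts were filtered (filterByExpr), scaled (TMM) and tested with edgeR 4.0.16 (quasi-likelihood F test) in R 4.3.3, each stretched group against the unstretched samples of its own experiment, with Benjamini-Hochberg adjustment over all genes tested and a threshold of 0.05. Standard errors are the log2 fold change over the root of F. CPM used TMM-scaled totals of all 15 samples. Deposited TPM values were summed per gene for levels, and transcript usage was tested with limma 3.58.1 on the log2 ratio of a transcript to the rest of its gene, 0.1 TPM added to both, for genes of at least 1 TPM. That scale understates changes of low transcripts. Alternatives were DESeq2 1.42.0, RLE scaling, other filters, each sample left out, blocks for replicate number or run of codes, and 1 fit of all samples. Scripts were tested on simulated data. The 9 members, the gene lists and the tests were chosen with earlier results of these data known. In every comparison all members were to be named. From each list, up to 3 genes that passed with the largest change were to be named, and the 3 genes most like each called member. The level of 1 marker gene is not reported here.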

Additional observations from a re-analysis of the deposited data

Results flagged for a closer look

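Prelp in low-stretch replicate 4, at 0.0254 CPM, lay far above the other low-stretch samples, which held 0.0125 to 0.014 CPM. Its gap to the next sample was large for a group of 6 by Dixon's test. It rested on 7 counts, beside 4 to 6 in the other low-stretch samples, and 9 groups were tested in this way, of which chance flags about 1 in 20. All 3 unstretched samples of experiment 1 lay above it, from 0.0441 CPM.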

How the results depend on the processing

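Under low stretch, Fmod and Ogn passed in all 16 alternatives and Prelp in 14 of 15, each with its direction kept. The exception was the fit with replicate number as a block, where Prelp stood at an edgeR adjusted p of 0.0502 and Podn passed at -1.95 (0.0426). Correlations here are between the deviations of samples from their group means in log2 CPM, gene by gene. For same-numbered pairs they were 0.361, -0.136 and -0.437 in experiment 1 and -0.16, 0.45 and 0.244 in experiment 2, not all over 0.1. The labels do not say that a number marks a shared batch. In experiment 2 number and run of codes are the same split, so their blocks are 1 fit. The replicate block changed the genes called from 1181 to 490 under low and from 643 to 1546 under high stretch, where 5 members passed, Dcn included. Between unstretched and low-stretch samples of the same run of codes in experiment 1, these deviations correlated at 0.323 to 0.568. With the run as a block 5 members passed under low stretch, and this block called 3 genes for the difference between stretch effects. The genes called under low stretch were 2837 in DESeq2, 640 in the fit of all samples and 220 to 1630 with a sample left out. Under high stretch they were 1403, 1488 and 14 to 1421, with 1050 genes without a filter and 414 at a mean count of at least 100. Members called under high stretch ranged from 0 to 5 with a sample left out. Without a filter on low values 4 member transcripts passed under low stretch (2 of Fmod, 2 of Prelp); these genes lie below 1 TPM, where the added 0.1 ties the ratio to the gene's level. Directions that turned belonged to values that passed in none of that comparison's fits, and the cause was not tested. With a sample left out, Bgn ran from -0.09 to 0.35 (low), -0.17 to 0.08 (high) and -0.42 to 0.02 (difference), Col5a2 from -0.14 to 0.08 (high), and Dcn from -0.23 to 0.97 (baseline). Under low stretch the usage of Podn-206 ran from -0.21 to 0.05, Podn-208 from -0.28 to 0.02, Bgn-203 from -0.25 to 0.07 and Bgn-201 from -0.09 to 0.24; under high stretch Podn-202 ran from -0.05 to 0.3, Bgn-203 from -0.61 to 0.2, Bgn-201 from -0.19 to 0.61 and Podn-201 from -0.36 to 1.07. With a pseudocount of 1, Podn-206 was 0.15 and Podn-208 0.26 under low stretch, and with the replicate block Podn-202 was -0.04. The depth limits Lum, Aspn, Prelp and Omd, which have at most 56 counts in any sample.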
